A study of Mus musculus with 12 samples.

Results

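Sugct, Gpx6, Gng4, Calml3, Fbp2 and Ccno are 6 genes on chromosome 13, the chromosome that also carries Agtr1a, the gene for the AT1A angiotensin receptor. They were chosen by their readout: each had a probe set that differed in kidney between wild-type mice (WT) and mice lacking the AT1A receptor (KO), both at baseline and under angiotensin II (ANG II). The 6 genes are represented by 9 of the 45037 non-control probe sets and belong to 18193 genes measured. Of 702 measured genes on chromosome 13, 21 had a probe set that met the same criterion, so the 6 are a selection from these and not the full set. The label that calls them genotype marking describes Sugct and Gpx6 most plainly, whose genotype groups lay several-fold apart, whereas the differences of the other members were at most 2.13-fold.

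The study profiled kidneys of male mice aged 2.5 months, an F1 cross of C57BL6 and 129/SvEv, on Affymetrix Mouse Genome 430 2.0 arrays. There were 12 arrays, 1 per mouse, in 4 groups of 3. WT baseline and KO baseline mice received a diet labelled NS without infusion, and WT ANG II and KO ANG II mice received the same diet with ANG II infused for 2 days at 1 ug/kg/min. The sources used here do not give how the KO F1 mice were bred or from which parental strain their chromosome 13 came.

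Sugct encodes succinyl-CoA:glutarate-CoA transferase, a mitochondrial enzyme that reactivates free glutarate formed in the breakdown of lysine and tryptophan. Gpx6 encodes a glutathione peroxidase known from the olfactory epithelium, and Gng4 a gamma subunit of heterotrimeric G proteins, which carry signals from receptors such as AT1A. Calml3 encodes a calmodulin-like calcium-binding protein of epithelia, Fbp2 the muscle form of fructose-1,6-bisphosphatase, and Ccno cyclin O, which is needed for the many centrioles of multiciliated cells. These genes share no pathway, and what they have in common by the rule is their chromosome and their genotype difference. Genes close to one another on a chromosome tend to be inherited together, so position relative to a targeted gene is of interest in any knockout cross.

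The start regions of Sugct and Gpx6, which had the widest genotype differences, and of Fbp2 and Ccno, which rose with the infusion in both genotypes, are shown so that their composition can be compared. Each run covers 250 bases before to 50 after the RefSeq gene start in GRCm38.p6, 5′ to 3′ on the gene's strand, at chr13:17694716-17695015 (minus strand) for Sugct, chr13:21311953-21312252 (plus) for Gpx6, chr13:62858351-62858650 (minus) for Fbp2 and chr13:112987552-112987851 (plus) for Ccno. Capitals mark matches on either strand to the GC box GGGCGG, the CCAAT box CCAAT, the TATA box TATAAA or the E box CACGTG, and no 2 matches of different motifs overlap in these runs.
Sugct: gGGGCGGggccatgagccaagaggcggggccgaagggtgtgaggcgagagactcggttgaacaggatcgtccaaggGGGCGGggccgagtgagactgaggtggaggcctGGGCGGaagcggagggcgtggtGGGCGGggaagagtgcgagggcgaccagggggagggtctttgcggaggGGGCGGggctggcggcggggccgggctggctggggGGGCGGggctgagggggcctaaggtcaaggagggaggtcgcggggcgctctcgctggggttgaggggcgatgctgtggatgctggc
Gpx6: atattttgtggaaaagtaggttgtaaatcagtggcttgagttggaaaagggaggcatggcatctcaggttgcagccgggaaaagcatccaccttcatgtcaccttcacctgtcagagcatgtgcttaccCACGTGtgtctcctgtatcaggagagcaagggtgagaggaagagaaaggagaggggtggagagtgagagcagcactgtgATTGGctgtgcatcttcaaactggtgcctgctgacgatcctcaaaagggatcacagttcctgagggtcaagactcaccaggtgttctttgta
Fbp2: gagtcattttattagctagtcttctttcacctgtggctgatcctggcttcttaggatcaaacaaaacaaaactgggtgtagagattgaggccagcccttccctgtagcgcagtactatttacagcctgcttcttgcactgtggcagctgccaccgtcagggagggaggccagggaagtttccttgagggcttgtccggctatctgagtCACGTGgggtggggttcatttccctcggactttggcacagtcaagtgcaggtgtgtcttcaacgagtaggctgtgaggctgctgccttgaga
Ccno: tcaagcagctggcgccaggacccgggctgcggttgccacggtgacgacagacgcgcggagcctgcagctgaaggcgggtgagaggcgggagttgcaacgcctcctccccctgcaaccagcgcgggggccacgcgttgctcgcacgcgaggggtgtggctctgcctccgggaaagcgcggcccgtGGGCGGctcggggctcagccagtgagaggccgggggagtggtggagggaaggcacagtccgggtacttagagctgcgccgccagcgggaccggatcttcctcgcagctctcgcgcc
The Sugct run held 6 GC boxes, a motif present in 35.7% of all 32851 such windows, and was 73.7% G and C against a median of 52.7% over all windows. The Gpx6 run held no GC box, 1 CCAAT box on the opposite strand (a motif in 37.4% of windows) and 1 E box (in 7.15%), and was 50% G and C. The Fbp2 run also held 1 E box and was 52.7% G and C, while Ccno held 1 GC box at 72%. None of these 4 runs, and neither of the 2 RefSeq windows of Gng4, held TATAAA, which occurs in 13.6% of windows. In composition the start of Sugct was thus unlike that of Gpx6. RefSeq windows were matched for 5 of the 6 genes, and Calml3 had none.

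The deposited values are ratios in which 1 is the median of a probe set across the series. Levels of different genes cannot be compared on this scale, and whether a low ratio is at background cannot be read from it. The targeted gene was examined first. Its single probe set gave ratios of 1.356 to 1.397 in WT baseline kidneys and 0.917 to 1.054 over both KO groups, but 0.957 to 1.003 in WT ANG II kidneys. KO minus WT was -0.49 ± 0.08 on the log2 scale at baseline and -0.00 ± 0.08 under ANG II (adjusted p = 0.00306 and 0.98, limma). The Agtr1a ratio thus set the genotypes apart at baseline and not under ANG II. Whether the probe set lies in the deleted part was not tested, so it checks the labels only in part. The spread of the arrays was uneven: within an array, log2 ratios had an SD of 0.164 to 0.18 in WT baseline, 0.268 to 0.342 in WT ANG II, 0.222 to 0.262 in KO baseline and 0.165 to 0.196 in KO ANG II arrays.

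Sugct, at its probe set 1421422_at, was the most widely separated gene by genotype. WT baseline kidneys had ratios of 2.592, 2.035 and 2.624, and WT ANG II kidneys 2.455, 1.812 and 2.010. KO baseline kidneys had ratios of 0.179, 0.157 and 0.136, and KO ANG II kidneys 0.155, 0.187 and 0.188. The lowest WT array thus stood far above the highest KO array in either state, and the 2 WT groups overlapped, as did the 2 KO groups. The log2 difference, KO minus WT, was -3.94 ± 0.14 at baseline and -3.56 ± 0.14 under ANG II (moderated SE, n = 3 per group), that is 15.4-fold and 11.8-fold lower. By the mean of both differences this probe set ranked 1 of 45037 in size. Since the gene was chosen on these differences they are given as a description, without a test.

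Gpx6, measured by 1452135_at alone, showed a like separation. The WT baseline ratios were 1.918, 1.790 and 1.598, and the WT ANG II ratios 2.408, 2.126 and 2.259. The KO baseline ratios were 0.208, 0.219 and 0.196, and the KO ANG II ratios 0.247, 0.402 and 0.208. No KO array came near a WT array, and KO ANG II replicate 2 stood apart from the other two arrays of its group. KO kidneys were 8.5-fold lower at baseline (log2 -3.09 ± 0.18) and 8.24-fold lower under ANG II (-3.04 ± 0.18). Without KO ANG II replicate 2 the difference under ANG II was -3.32. In order, the WT ANG II arrays lay above the WT baseline arrays without overlap, whereas the 2 KO groups overlapped at the bottom. Gpx6 ranked 3 of 45037 by the size of its mean difference and 2 among probe sets lower in KO.

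**Figure D1:**
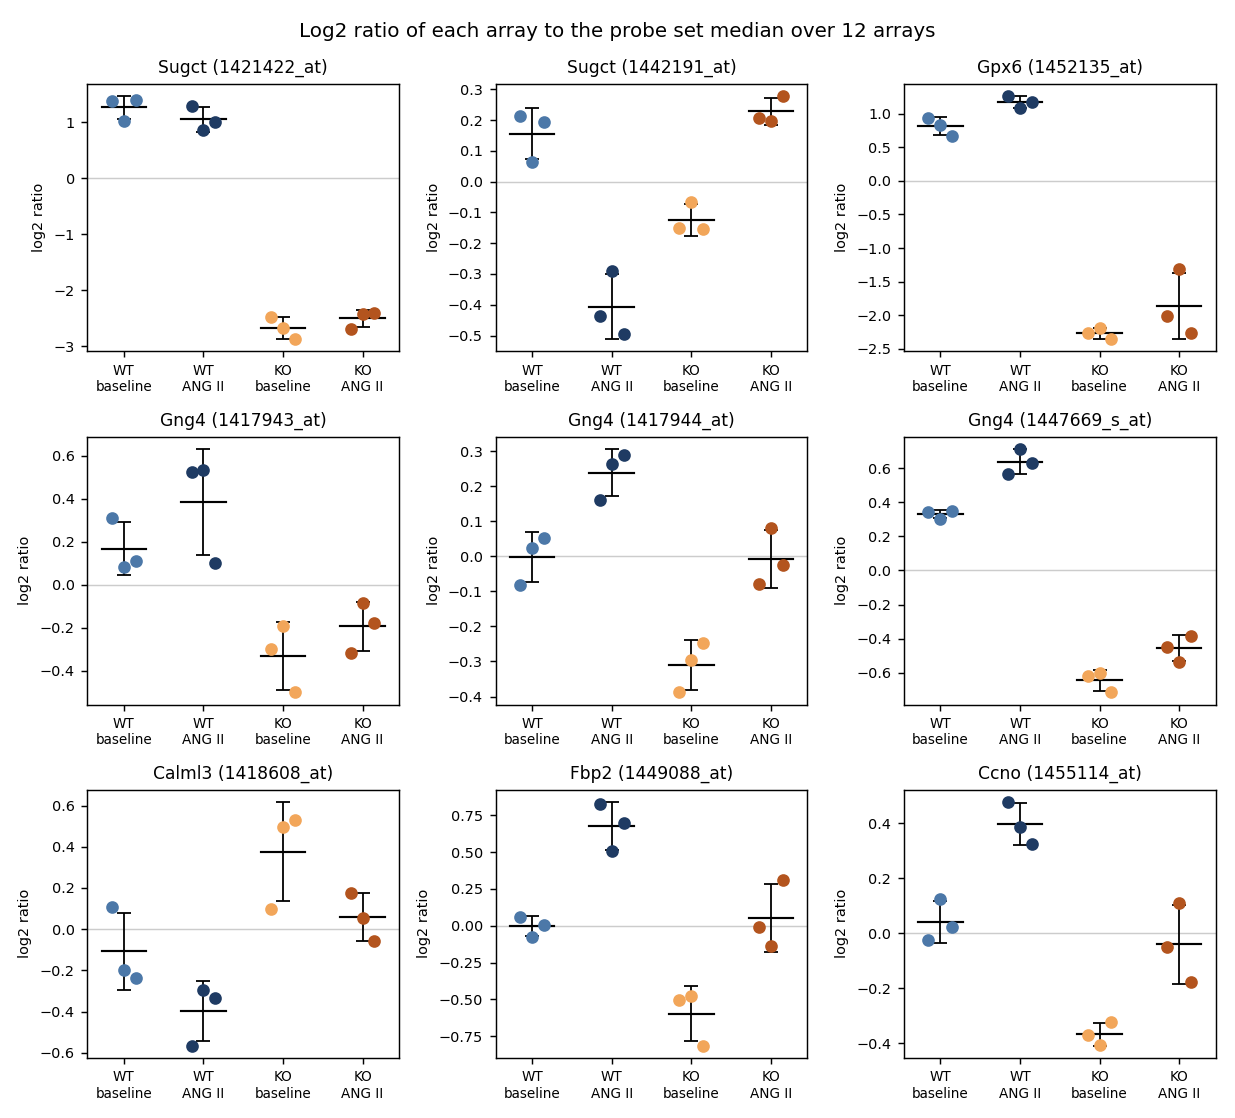
Log2 ratio of each of the 12 arrays to the probe set's median, for the 9 probe sets of the 6 genes, by group. Points are mice, horizontal bars group means and error bars SD (n = 3), and vertical scales differ between panels. Sugct 1421422_at and Gpx6 split by genotype with a wide gap, while Sugct 1442191_at does not split that way.

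The second Sugct probe set, 1442191_at, did not follow the first. Its ratios were 1.158, 1.044 and 1.144 in WT baseline, 0.739, 0.818 and 0.710 in WT ANG II, 0.900, 0.956 and 0.898 in KO baseline and 1.154, 1.147 and 1.213 in KO ANG II kidneys. The KO arrays were below the WT arrays at baseline and above them under ANG II, with no overlap in either state. The differences were -0.28 ± 0.08 and 0.63 ± 0.08 on the log2 scale, so the 2 Sugct probe sets had opposite signs under ANG II. Over the 12 arrays the Pearson correlation of the 2 probe sets was -0.29. The array annotation assigns both to the same gene, and the transcripts that each detects are not stated in the labels. The very wide genotype difference of Sugct therefore rests on 1 of its 2 probe sets.

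Gng4 had 3 probe sets, and all 3 were lower in KO in both states, to unequal degrees. At 1447669_s_at the ratios were 1.268, 1.234 and 1.273 in WT baseline, 1.482, 1.638 and 1.549 in WT ANG II, 0.651, 0.660 and 0.609 in KO baseline and 0.733, 0.689 and 0.766 in KO ANG II kidneys. The 4 groups did not overlap and stood in the order WT ANG II, WT baseline, KO ANG II, KO baseline. The log2 differences were -0.98 ± 0.08 at baseline and -1.09 ± 0.08 under ANG II, or 1.97-fold and 2.13-fold lower in KO. At 1417943_at the differences were -0.50 ± 0.12 and -0.58 ± 0.12, with KO ratios of 0.707 to 0.942 against WT ratios of 1.058 to 1.445. At 1417944_at they were -0.31 ± 0.08 and -0.25 ± 0.08, and the KO ANG II ratios of 0.946 to 1.058 overlapped the WT baseline ratios of 0.945 to 1.038. The probe sets of Gng4 therefore shared a direction, with differences that ranged from 1.19-fold to 2.13-fold.

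Fbp2, at 1449088_at, had ratios of 1.041, 0.948 and 1.005 in WT baseline, 1.777, 1.423 and 1.622 in WT ANG II, 0.706, 0.718 and 0.569 in KO baseline and 0.995, 0.909 and 1.240 in KO ANG II kidneys. Within each state the KO arrays lay below the WT arrays, and the KO ANG II arrays overlapped the WT baseline arrays. KO minus WT was -0.59 ± 0.13 at baseline and -0.62 ± 0.13 under ANG II. Ccno, at 1455114_at, had the same arrangement, with ratios of 0.983, 1.091 and 1.017 in WT baseline, 1.392, 1.308 and 1.254 in WT ANG II, 0.773, 0.755 and 0.8 in KO baseline and 0.966, 1.079 and 0.884 in KO ANG II kidneys. Its differences were -0.41 ± 0.09 and -0.44 ± 0.09. For both genes the infused KO kidneys thus sat at about the level of uninfused WT kidneys.

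Calml3 was the 1 member higher in KO. Its probe set 1418608_at gave ratios of 1.077, 0.873 and 0.850 in WT baseline, 0.676, 0.815 and 0.794 in WT ANG II, 1.071, 1.412 and 1.445 in KO baseline and 1.129, 1.039 and 0.961 in KO ANG II kidneys. WT baseline replicate 1 lay above KO baseline replicate 1, so the baseline groups overlapped, while under ANG II they did not. KO minus WT was 0.48 ± 0.13 and 0.46 ± 0.13.

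**Figure D2:**
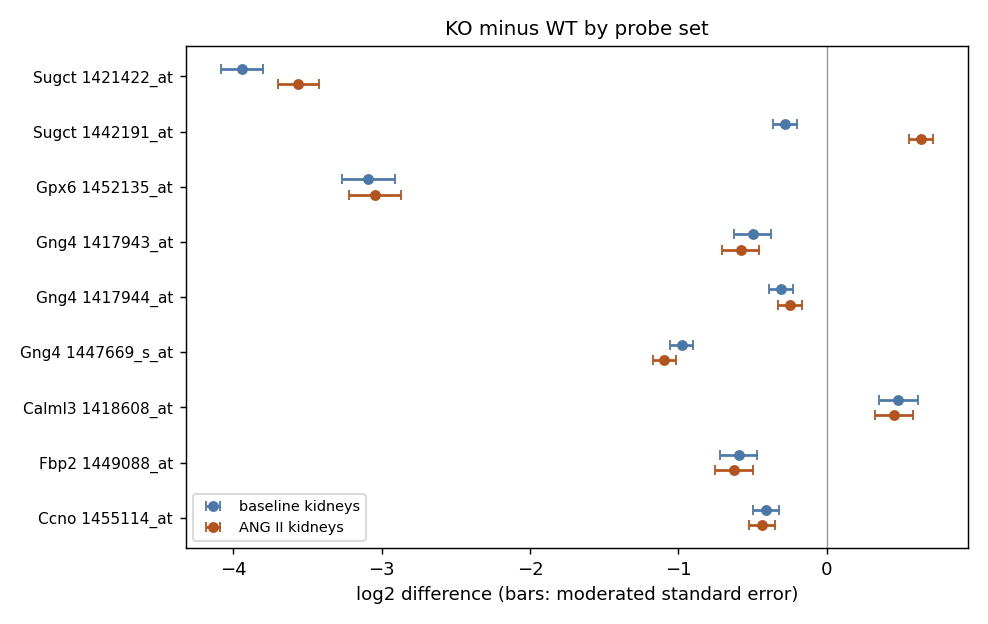
KO minus WT difference on the log2 scale for each of the 9 probe sets, at baseline (blue) and under ANG II (orange), with moderated standard errors (n = 3 per group). The 2 states lie close together for every probe set but Sugct 1442191_at, whose difference changes sign from -0.28 to 0.63.

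In the whole series 6.52% of probe sets differed by genotype at baseline (4.87% higher and 1.65% lower in KO) at a Benjamini-Hochberg adjusted p under 0.05 (limma). Under ANG II 19.8% did (11.7% higher and 8.17% lower), and 1.12% did so in both states in the same direction (0.804% higher and 0.32% lower). Of the 9 member probe sets 1 was higher and 7 lower at baseline, and 2 were higher and 7 lower under ANG II. These counts follow from the choice of genes and nothing is read from them. Groups did not overlap for 8 of 9 at baseline, against 30.9% of all probe sets, and for 9 of 9 under ANG II, against 35.1%. For 7 of 9 they did not overlap in both states in the same direction, against 7.42%. These counts of groups without overlap also follow from the choice of genes, and nothing is read from them. The members closest to the criterion were Calml3, with adjusted p = 0.041 at baseline, and Gng4 1417944_at, with adjusted p = 0.046 under ANG II (limma), while Sugct 1442191_at missed it with adjusted p = 0.0566 at baseline (limma). At 8 of the 9 probe sets the genotype difference under ANG II differed from that at baseline by at most 0.38 on the log2 scale. Sugct 1442191_at was the exception, at 0.91 ± 0.12.

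The rule that chose the genes did not use the infusion comparisons, so these were tested in each genotype. They share their arrays with the genotype comparisons of the rule, and the genes were chosen with earlier results of these data known. Fbp2 and Ccno rose in both genotypes, by nearly equal amounts in WT and KO kidneys. Fbp2 rose by 0.68 ± 0.13 in WT (1.61-fold, adjusted p = 0.00233, limma with Benjamini-Hochberg adjustment, n = 3 per group) and by 0.65 ± 0.13 in KO (1.57-fold, adjusted p = 0.00604), and in each genotype 3 of 3 infused arrays lay above the baseline arrays of that genotype. Both calls held in the 19 alternative settings fitted for both genotypes, with adjusted p up to 0.0284 in WT and 0.0305 in KO (limma). Ccno rose by 0.36 ± 0.09 in WT (adjusted p = 0.0118) and 0.33 ± 0.09 in KO (adjusted p = 0.0325, limma), again without overlap. Leaving out WT baseline replicate 1 ended the Ccno call in WT (adjusted p = 0.0521, limma), as did quantile normalization (adjusted p = 0.125). The KO call was lost when KO ANG II replicate 1 (adjusted p = 0.0587) or 2 (0.127) was removed, and likewise for each of the KO baseline arrays (0.0842, 0.108 and 0.0608).

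Gng4 rose at some of its probe sets. At 1447669_s_at it rose by 0.31 ± 0.08 in WT (adjusted p = 0.0129, limma), and the KO change of 0.19 ± 0.08 was not called (adjusted p = 0.135), although the KO groups did not overlap. Quantile normalization ended the WT call (adjusted p = 0.349) and gave a KO call (adjusted p = 0.0427). At 1417944_at it rose by 0.24 ± 0.08 in WT (adjusted p = 0.045) and by 0.30 ± 0.08 in KO (adjusted p = 0.0311, limma). The WT call of 1417944_at held in 5 of 19 alternative settings and the KO call in 13. With the WT arrays alone and paired by replicate number it was lost too (adjusted p = 0.0781, limma). Removing KO ANG II replicate 3, WT ANG II replicate 2 or 3, or any 1 of the 3 KO baseline or 3 WT baseline arrays ended the WT call, at adjusted p of 0.0536 to 0.159 (limma). Removing KO ANG II replicate 2 or 3 or KO baseline replicate 1 or 2 ended the KO call, at adjusted p of 0.0824 to 0.113. At 1417943_at neither change was called (0.22 ± 0.12 and 0.14 ± 0.12). The WT change there passed without WT ANG II replicate 3, at 0.36 (adjusted p = 0.0465), and as the mean of the gene's 3 probe sets, at 0.25 (adjusted p = 0.013, limma).

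The main probe set of Sugct and that of Gpx6 did not pass the test of the infusion in either genotype. For Sugct 1421422_at the log2 changes were -0.21 ± 0.14 in WT (adjusted p = 0.283) and 0.17 ± 0.14 in KO (adjusted p = 0.454, limma). The WT change of Sugct was -1.11 with quantile normalization (adjusted p = 0.000214) and -0.39 as the mean of both probe sets (adjusted p = 0.00778), both called. For Gpx6 they were 0.36 ± 0.18 (adjusted p = 0.149) and 0.40 ± 0.18 (adjusted p = 0.157, limma), and the WT change passed at the same size without KO ANG II replicate 2 (adjusted p = 0.0217) or with the 2 WT groups alone (adjusted p = 0.0392), also when these were paired by replicate number (adjusted p = 0.0339, limma). With quantile normalization the Gpx6 change in WT had the opposite sign, at -0.27 (adjusted p = 0.243). The second Sugct probe set fell by 0.56 in WT (SE 0.08, adjusted p = 0.000465) and rose by 0.35 ± 0.08 in KO (adjusted p = 0.0162, limma), each without overlap of the groups. Its KO call was lost when KO ANG II replicate 3 (adjusted p = 0.0696), KO baseline replicate 1 (0.0569) or KO baseline replicate 3 (0.053) was removed. Calml3 changed by -0.29 ± 0.13 in WT (adjusted p = 0.115) and -0.32 ± 0.13 in KO (adjusted p = 0.132, limma), neither called. Without KO baseline replicate 1 its KO change was -0.46 (adjusted p = 0.0479).

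In all, 4 of the 9 member probe sets rose and 1 fell in WT kidneys, where 10.9% of all probe sets rose and 13.3% fell (24.1% together). In KO kidneys 4 rose and 0 fell, where 3.6% of all rose and 6.31% fell (9.91% together). The probe sets of Fbp2 and Ccno and Gng4 1417944_at rose in both genotypes, as did 0.875% of all probe sets, and 0 fell in both, beside 1.81% of all. The median log2 change of the 9 was 0.24 in WT and 0.30 in KO, beside 0.05 in both for all probe sets. Groups did not overlap for 7 of the 9 in WT (39% of all probe sets) and for 5 in KO (34.6%). The infusion comparisons share their arrays with the genotype comparisons that chose the genes.

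**Figure D3:**
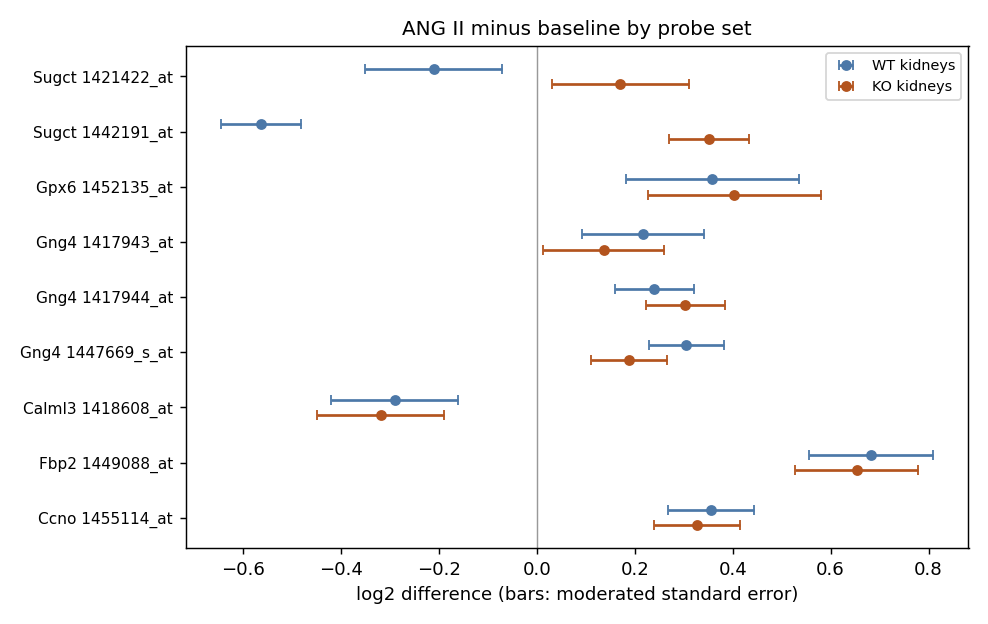
ANG II minus baseline on the log2 scale for the 9 probe sets in WT (blue) and KO (orange) kidneys, with moderated standard errors (n = 3 per group). Fbp2 rose by 0.68 in WT and 0.65 in KO, and Sugct 1442191_at fell in WT by 0.56 and rose in KO by 0.35.

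Along the chromosome the 6 genes were spread widely. In the gene order of GRCm38.p6, counted over measured genes, Calml3 lay 141 genes before Agtr1a, Gng4 104, Sugct 91 and Gpx6 73, while Fbp2 lay 254 and Ccno 515 genes after it. Taking each gene at its widest probe set, the 3 members with the widest differences were on the same side of Agtr1a, between positions 43 and 74 of 702. This depends on the probe set. At the main probe sets the mean difference of Fbp2, on the other side, was -0.61 and that of Gng4 -0.54. The members were chosen by these differences, so nothing is read from their side. Of the 100 measured genes just before Agtr1a 5 had a probe set called in both states in the same direction, namely Sugct, Gpx6, Zkscan8, Hfe and Dcdc2a. Of the 100 just after it, 1 did, Ly86, a lymphocyte antigen. Of all 18193 measured genes 1.98% did so. The last 55 measured genes of the chromosome held 4, among them Ccno. The members chosen for this difference are included in these window counts.

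By chromosome, 29 of 1371 probe sets of chromosome 13 were called by genotype in both states in the same direction (2.12%), the highest share among the 19 autosomes and X. Chromosome 6 was next at 1.82%, and all other chromosomes together had 399 of 33360 (1.2%). Without the 9 member probe sets the share on chromosome 13 was 21 of 1362, or 1.54%, below chromosomes 6, 7, 9 and 17. Called probe sets were left out on chromosome 13 only, which can only lower its share. Its rank without the members therefore compares unlike sets. The members were picked by their genotype differences, so directions are given as a description and nothing is read from them. Of the 8 member probe sets that met the criterion 7 were lower in KO. Of the 21 others on the chromosome 19 were higher in KO, as were 300 of 399 on other chromosomes. The widest among the others on chromosome 13 were the chemokines Ccl28 (mean log2 difference 2.03) and Cxcl14 (1.77) and the matrix protein Tgfbi (1.35), all higher in KO. The 2 others that were lower were Hfe (-0.63), a regulator of iron uptake, and Bhmt (-0.89), the betaine-homocysteine methyltransferase.

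**Figure D4:**
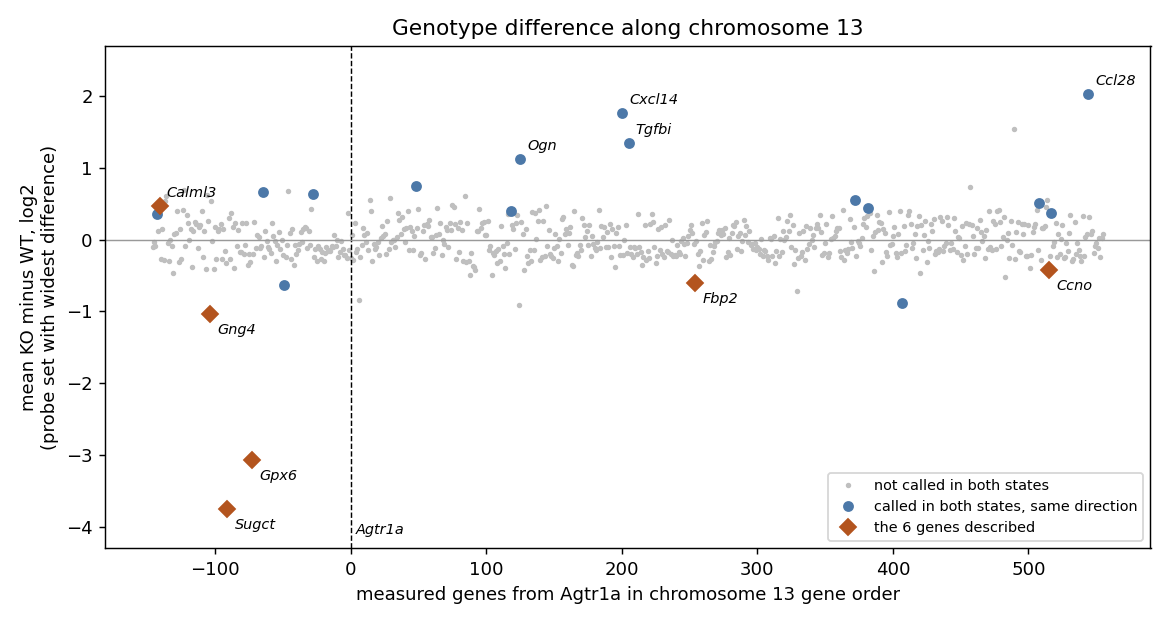
Mean KO minus WT log2 difference over both states for 702 measured genes of chromosome 13, each at its probe set with the widest difference, against the number of measured genes from Agtr1a (dashed line). Orange diamonds are the 6 genes and blue circles the other 15 genes called in both states in the same direction. Sugct, Gpx6 and Gng4 lie below the rest on the left of Agtr1a.

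**Figure D5:**
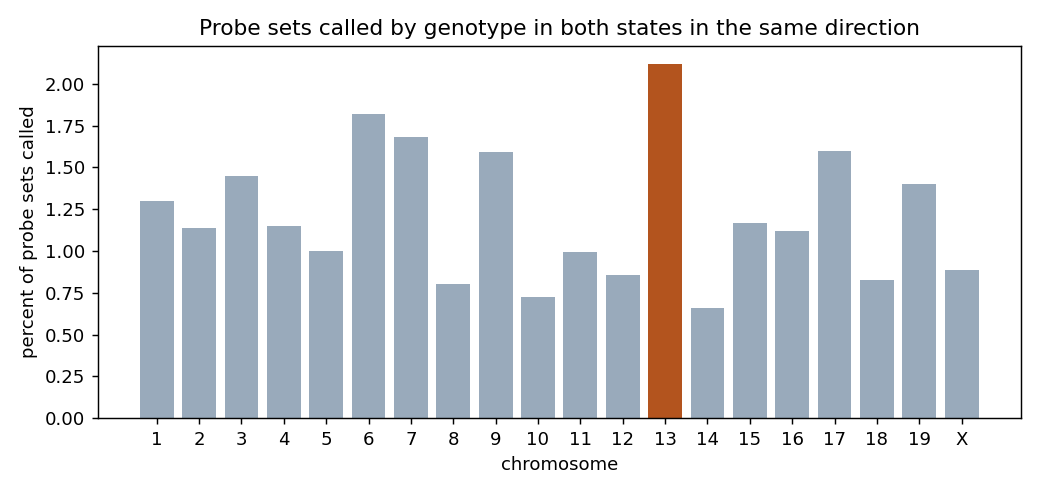
Percent of probe sets called by genotype in both states in the same direction on each autosome and X. Chromosome 13 (orange, 2.12%) has the highest bar, and without the 9 member probe sets it would be 1.54%.

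The genes next to the members mostly did not share their genotype difference. The 3 measured genes on each side of each member and of Agtr1a made 42 genes, of which 2 had a probe set called in both states in the same direction, Tasor2 near Calml3 and Gpx8 near Ccno (1.98% of all genes). None of the 6 around Sugct was called in both states, and their main probe sets lay between -0.23 and 0.52 on the log2 scale. The nearest were Inhba, the activin subunit, at 0.05 at baseline and -0.12 under ANG II, and Mplkip, at 0.08 and 0.51. Around Gpx6 they lay between -0.39 and 0.45, and around Agtr1a itself between -0.34 and 0.44. The wide differences of Sugct and Gpx6 were therefore not seen at the main probe sets of the genes beside them.

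For 3 members the nearest measured neighbour was a paralog, which gives a comparison within the family. Gpx5, the epididymal glutathione peroxidase next to Gpx6, differed by -0.23 ± 0.12 at baseline (adjusted p = 0.282) and -0.39 ± 0.12 under ANG II (adjusted p = 0.0361, limma), far less than Gpx6. Fbp1, the liver and kidney fructose-1,6-bisphosphatase next to Fbp2, differed by -0.06 ± 0.07 (adjusted p = 0.668) and 0.04 ± 0.07 (adjusted p = 0.753, limma). It also did not pass the test of the infusion (-0.10 in WT and -0.00 in KO), to which Fbp2 responded. Calm4, next to Calml3, differed by -0.11 ± 0.07 and -0.43 ± 0.07 (adjusted p = 0.411 and 0.00156, limma), opposite in sign to Calml3.

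Genes that work in the same pathways as the members were examined as lists, with 1 probe set per gene. Among 19 measured genes of glutarate and lysine breakdown 0 differed by genotype at baseline, where 4.52% of all genes were higher and 2.04% lower in KO. Under ANG II 6 were higher and 1 lower in KO, where 13.7% and 7.87% of all genes were. Hykk, the hydroxylysine kinase, differed by -0.30 ± 0.09 (adjusted p = 0.055) and 0.50 ± 0.09 (adjusted p = 0.0016), and Dhtkd1, which makes glutaryl-CoA, by -0.11 ± 0.12 (adjusted p = 0.611) and -0.58 ± 0.12 (adjusted p = 0.00431, limma). Gcdh, the next enzyme after the Sugct step, differed by -0.02 and -0.04. With the infusion 0 of the 19 rose and 3 fell in WT, and 2 rose and 0 fell in KO. Over all genes 9.61% rose and 14.5% fell in WT, and 4.28% rose and 5.73% fell in KO.

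Among the 7 other glutathione peroxidases Gpx8 was higher in KO in both states, by 0.37 ± 0.10 each time (adjusted p = 0.0486 and 0.0227, limma), in the direction opposite to Gpx6. Besides it 0 passed at baseline, and Gpx5 was lower under ANG II. Of 15 G protein beta and gamma subunits 2 were higher and 0 lower in KO at baseline, and 3 higher and 1 lower under ANG II. Gng10 was called in both, at 0.33 ± 0.09 and 0.63 ± 0.09 (adjusted p = 0.0482 and 0.000465, limma), again opposite to Gng4. With the infusion Gng10 fell by 0.69 in WT (adjusted p = 0.000256) and fell by 0.39 in KO (adjusted p = 0.0173). The 2 measured calmodulin relatives, Calml4 and Calm4, were not called at baseline, and under ANG II Calml4 was higher in KO by 0.57 ± 0.08 (adjusted p = 0.000332, limma).

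Of 10 gluconeogenesis genes 1 was higher in KO at baseline, Pck1 (0.64 ± 0.16, adjusted p = 0.0316, limma), and 1 was lower under ANG II. Over all genes 4.52% were higher and 2.04% lower at baseline, and 13.7% and 7.87% under ANG II. These shares apply to all the lists with 1 probe set per gene. G6pc, the glucose-6-phosphatase, differed by 0.41 ± 0.12 at baseline (adjusted p = 0.0544, not called) and -0.51 ± 0.12 under ANG II (adjusted p = 0.00944, limma). With the infusion it rose by 0.88 in WT (adjusted p = 0.000282, limma) while its KO change was -0.05. Pfkfb4 differed by 0.46 ± 0.13 and 0.33 ± 0.13, and neither was called. Of 12 multiciliation genes 0 differed at baseline, and under ANG II 1 was higher and 3 lower in KO. Foxn4 and Ccna1 were among the lower ones, at -0.44 ± 0.10 and -0.43 ± 0.09 (adjusted p = 0.0106 and 0.00448, limma). Cdc20b, the measured gene next to Ccno, was called in neither state. With the infusion 3 of the 12 rose and 1 fell in WT, and 0 were called in KO. Whether Ccno differed from them in KO was not tested.

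The arrays were also searched for the genes whose log2 ratios were most like each member's main probe set, by Pearson correlation over the 12 arrays. For Sugct these were Gpx6 (r = 0.98), Gng4 at 1447669_s_at (0.96) and Hnrnpk (0.93), all on chromosome 13. For Gpx6 they were Sugct, Gng4 (0.97) and Fbxo21 of chromosome 5 (0.94). For Gng4 1417943_at, Calml3, Fbp2 and Ccno none of the 3 most alike genes was on chromosome 13. They included Clec2h for Gng4 (0.97), Hnrnph3 for Calml3 (0.93), Spata46 for Fbp2 (0.96) and 4930406D18Rik for Ccno (0.97). The arrays fall into groups, and these coefficients are mostly set by the differences between groups. Clec2h was itself lower in KO by 1.41 and 1.5 on the log2 scale.

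Among all genes called in both states in the same direction without overlap of the groups, Sugct and Gpx6 had the 2 largest mean differences. The next were immunoglobulin genes, higher in KO: Jchain (2.98), Igha (2.86), Igkv8-30 (2.76) and Igkv9-120 (2.60). Ccl28, Vcam1, Cxcl14 and Hpd completed the 10 largest, and 4 of the 10 were on chromosome 13. Macrophage markers also differed by genotype, while most lymphocyte markers were not called. Over all genes 4.52% were higher and 2.04% lower in KO at baseline, and 13.7% and 7.87% under ANG II. Of 8 proximal tubule markers 0 were higher and 1 lower at baseline, and 4 higher and 2 lower under ANG II. Of 5 endothelial markers 1 was higher at baseline and 2 under ANG II, with 0 lower. Apart from these and the macrophage list, no list had more than 1 marker called in either state. Of 6 macrophage markers 5 were higher in KO at baseline and 4 under ANG II, and the mean log2 ratio of the 6 was -0.47 to 0.04 in WT baseline, -0.81 to -0.41 in WT ANG II, 0.85 to 1.44 in KO baseline and -0.08 to 0.35 in KO ANG II arrays. Calml3, the member higher in KO, had the same order of group means, while Gpx6, Ccno and every Gng4 probe set had the reverse order. Of 6 B and T lymphocyte markers 1, Cd3g, was higher in KO at baseline (0.41 ± 0.11, adjusted p = 0.0425, limma) and 0 were called under ANG II, and the B cell markers Cd79a, Cd79b and Ms4a1 were called in neither state. Of 6 skeletal muscle markers and 5 markers of ciliated epithelium, tissues where Fbp2 and Ccno are best known, 0 were called at baseline, and 0 and 1 (lower in KO) under ANG II. The part of these cell types in the members' differences was not tested. In whole kidney RNA, fewer cells of a type and less RNA per cell cannot be told apart, and ratios do not show whether the defining markers of the kidney are present.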

How the data were processed

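Kidney RNA of 12 mice was measured on 1 array each. Per the labels, the submitters' processing notes name RMA. The deposited values were linear ratios with each probe set's median as 1, which was read from the values: that median over arrays was within 0.002 of 1 for 45099 of 45101 probe sets. The division and the intensities are not given in the sources used here. The 64 control probe sets were left out and ratios were taken to log2 with no pseudocount and no filter on low values, so all 9 member probe sets were tested. With limma 3.58.1 under R 4.3.3, all 12 arrays entered a model with 1 mean per group (8 residual degrees of freedom), without a variance trend. Tests were two-sided and adjusted by Benjamini-Hochberg over 45037 probe sets, with calls at an adjusted p under 0.05. p-values measure the spread between mice. No batch is given in the labels, and the number of arrays limits the precision.

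Symbols came from the array annotation and gene order from RefSeq GRCm38.p6. For a gene with several probe sets the main one was a plain _at before _a_at, _s_at and _x_at, then the lowest number. Named genes were the members, Agtr1a, the 3 genes most correlated with each member, the 3 neighbours on each side, listed genes called in both states (or else the 2 with the largest mean genotype difference, to which Gcdh and the 3 paralogs beside members were added after their values were seen), and the 10 largest genotype differences. Tasor2, Zkscan8, Hfe, Bhmt, Dcdc2a, Ly86, Tgfbi and Pck1 were also named after their values were seen. The members, lists, motifs and alternatives were chosen with earlier results of these data known. Alternatives were a variance trend, the 2 groups alone, quantile normalization, median centring, the replicate block, array weights, a filter on spread, averaging of probe sets by gene, and each array left out. The fit was tested on simulated data. The labels do not say that a replicate number marks a shared litter or day. Deviations from group means of same-numbered WT baseline and WT ANG II arrays correlated at 0.19, 0.18 and 0.13. All 3 were over the limit of 0.1, so the numbers were treated as a possible pairing. A fit of the 2 WT groups with the replicate block was added after seeing the data. These correlations do not establish a pairing: WT baseline and KO ANG II arrays reached 0.22 for replicates 1 and 3, with 0.02 for replicate 2. In no other pair of groups did all 3 pass.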

Additional observations from a re-analysis of the deposited data

Results flagged for a closer look

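Sugct 1442191_at was singled out because every infused WT array lay below every WT baseline array and every infused KO array lay above every KO baseline array. The change was -0.56 ± 0.08 in WT and 0.35 ± 0.08 in KO kidneys on the log2 scale, a difference of 0.91 ± 0.12. That difference was not tested, since it is made of the genotype contrasts by which the genes were chosen. The other Sugct probe set changed by -0.21 ± 0.14 and 0.17 ± 0.14, and neither change was called.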

How the results depend on the processing

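The genotype differences of the 9 member probe sets kept their sign under all alternatives run, and 339 of 346 such values moved by less than 1 SD between replicates. Sign and size do not show whether a difference was still called, and the counts called are given below. Exceptions by size with quantile normalization at baseline were Sugct 1421422_at (-4.69), Gpx6 (-3.64), Gng4 1447669_s_at (-1.41) and Fbp2 (-0.80). Further exceptions were Sugct with its 2 probe sets averaged (-2.11 at baseline and -1.46 under ANG II). The last was Gpx6 under ANG II without KO ANG II replicate 2, at -3.32. Of 9 member probe sets, 5 were called in WT and 4 in KO for the infusion. Quantile normalization gave 3 in WT, and the 2 groups alone gave 2 in KO. Leaving out 1 array gave 3 to 6 in WT (3 without WT baseline replicate 1) and 2 to 4 in KO (2 without KO ANG II replicate 2 or 3 or any 1 of the KO baseline arrays). For genotype, leaving out 1 array gave 3 to 9 at baseline (8 with all arrays, 5 without KO baseline replicate 2, 4 without KO baseline replicate 3 or WT baseline replicate 2, 3 without WT baseline replicate 3) and 7 to 9 under ANG II (9 with all arrays). Quantile normalization gave 9 at baseline and 6 under ANG II, and a variance trend gave 7 at baseline and 7 under ANG II. With quantile normalization the WT change of Sugct 1421422_at was -1.11 (adjusted p = 0.000214, limma), and those of Gng4 1447669_s_at (adjusted p = 0.349) and Ccno (adjusted p = 0.125) were no longer called. The Gpx6 change in WT was -0.27 there and not called (adjusted p = 0.243). With a variance trend the WT changes of Sugct 1421422_at and Gpx6 kept their size, at adjusted p of 0.991 and 0.865 (limma). With the 2 groups alone the KO calls of Ccno (adjusted p = 0.0569) and Gng4 1417944_at (adjusted p = 0.0506) ended.

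On chromosome 13 the count of 29 probe sets called in both states was 19 with quantile normalization and 18 to 28 with 1 array left out (18 without WT baseline replicate 3). The members were chosen for this call, so shares are given without their probe sets. They were 1.03% to 2.99% over 19 settings (averaging by gene was not run for them). In each setting they were above the pooled share of all other chromosomes, by least without KO ANG II replicate 2 (1.17% against 1.04%). They were 1.1% against 0.477% without WT baseline replicate 3 and 2.57% against 1.67% with array weights. Single chromosomes were not compared in these settings. Over all probe sets, quantile normalization gave 5704 WT changes in place of 10876 and 4063 genotype differences under ANG II in place of 8934, for which the 2 groups alone gave 4991. Array weights gave 6962 KO changes in place of 4465 and 4849 baseline genotype differences in place of 2936. Leaving out 1 array gave as few as 5773, 2069, 1107 and 5021 in the WT, KO, baseline and ANG II comparisons.

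With the replicate number as a block over all 12 arrays, the chromosome 13 count was 31. Among the members 7 were called at baseline in place of 8, Calml3 being the one lost, and no other member call changed. With the block on the 2 WT groups alone, added after seeing the data, 5 of 9 were called in WT, with Gng4 1417944_at lost (adjusted p = 0.0781) and Gpx6 gained (adjusted p = 0.0339, limma), and 9532 probe sets in all. Over all groups 7 of 18 same-numbered pairs correlated above 0.1 (-0.16 to 0.22), including the 3 WT pairs, and 6 of 12 arrays correlated best with their own number. The causes of these shifts were not tested. Ratios do not show how far a signal stood above background.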
